A study of Mus musculus with 26 samples.

Results

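Gene expression was compared between mouse embryonic fibroblasts (MEFs) whose ATRX lacks its RNA-binding region (ATRXΔRBR) and WT MEFs. The members of this comparison are all genes with more than 10 estimated RNA-Seq counts in total over the 4 libraries, which were 16334 of the 53801 genes in the files. The series holds 26 samples, of which 4 RNA-Seq libraries enter the comparison, 2 replicates for each genotype. All are of a female MEF line that expresses Xist. The WT cells carry an intact Atrx gene. The ATRXΔRBR cells are a single clone with an in-frame deletion in exon 9 of the endogenous Atrx gene, made with Cas9 and a pair of guide RNAs. Because 1 clone stands for the genotype, an effect of the deletion and a difference that this clone carries for other reasons cannot be told apart here. A further pair of libraries is labelled ATRX KD, for which the methods describe shRNA and puromycin selection, and its levels are set beside the others for a few genes only, since it shares the WT libraries. The methods call the libraries of a genotype biological replicates, and the labels do not say whether these came from separate cultures, so the p-values measure the spread between these libraries only.

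ATRX is an SNF2-family chromatin remodeller that works with the chaperone DAXX to place the histone variant H3.3 in heterochromatin, telomeres and other repeats. It also binds RNA, and the inactive X chromosome of female cells is coated by the long noncoding RNA Xist. Polycomb repressive complex 2 (PRC2), whose catalytic subunit is EZH2 or EZH1, methylates lysine 27 of histone H3 (H3K27me3) at silent developmental genes.

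The guide sequences show where Cas9 was directed in Atrx, and are given 5′ to 3′ with the adjacent PAM of the reference genome in capitals.
upstream guide: tgtgttggatgatatcaagaAGG
downstream guide: agctaagcaaccagtgattgGGG
Both match the minus strand of chromosome X of GRCm38 (mm10), the upstream guide at chrX:105877020-105877039 and the downstream guide at chrX:105876096-105876115, in coding exon 9 of the 35 exons of the Atrx transcript ENSMUST00000113573.7. The expected cuts fall in codons 404 and 712. They lie 924 bases apart, which is 308 whole codons and 8.99% of the 10275 bases of this transcript. The study's sequencing of the clone placed the ends of the deletion at codons other than these, so the values describe the expected cuts and not the sequenced deletion. The rest of the transcript is still counted, so the Atrx level does not test the labels. Atrx had 233 and 141 TPM (a transcript level corrected for gene length and library total) in WT and 175 and 124 in ATRXΔRBR. The libraries labelled ATRX KD had 331 and 512 TPM, above both genotypes, so the Atrx level does not bear out their label. For its ATRX KD cells the paper reports depleted ATRX, less DAXX protein and fewer regions enriched for EZH2, which go the way of the label. The WT and ATRXΔRBR ranges overlapped, and the log2 fold change fitted with edgeR was −0.63 (SE 0.22, edgeR adjusted p = 0.14). Here and below, an edgeR adjusted p comes from the quasi-likelihood test of that package, adjusted by the Benjamini-Hochberg method over all 16334 genes, and a gene was called when it was under 0.05. Daxx, the partner of ATRX, had 37.4 and 33.3 TPM in WT and 29.3 and 34.5 in ATRXΔRBR, and was not called (log2 fold change −0.16, edgeR adjusted p = 0.66).

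Library totals were 13320635 and 11856636 estimated counts for WT and 9574175 and 13694802 for ATRXΔRBR, so the ATRXΔRBR pair holds both the shallowest and the deepest library. Mitochondrial genes took 2.55% and 2.77% of the counts in WT and 2.56% and 2.23% in ATRXΔRBR. The fibroblast label was checked against 14 marker genes, of which 10 reached at least 1 TPM in all 4 libraries. Vim, an intermediate filament of mesenchymal cells, had 5615 and 3903 TPM in WT and 5534 and 6235 in ATRXΔRBR, and Pdgfrb, a growth factor receptor of fibroblasts, had 54.1 and 60.7 against 77.4 and 64.1. The fibroblast markers Thy1 and Lum were under 0.1 TPM in every library. The summed level of the 14 markers was 13803 and 11495 TPM in WT and 21397 and 23436 in ATRXΔRBR. This difference was led by S100a4, the most abundant of them in ATRXΔRBR. Of the 12 tested, S100a4 and Fbn1 were called higher and Col3a1 lower. The 10 epithelial markers summed to 1.37 and 0.75 TPM in WT and 1.24 and 1.16 in ATRXΔRBR, and the 10 skeletal muscle markers to 1.72 and 2.68 against 2.18 and 3.85, with Krt5, Krt18, Myod1 and Myog under 0.1 TPM. The 10 endothelial markers summed to 25.6 and 28.02 TPM in WT and 13.5 and 17.1 in ATRXΔRBR. Most of that was Egfl7, with 22.2 and 23.9 against 7.23 and 13.7 TPM, while Kdr and Cdh5 were under 0.1 TPM. The endothelial markers Pecam1 and Erg moved in opposite directions, Pecam1 from 0.93 and 1.58 TPM up to 5.22 and 3.01 and Erg from 1.75 and 2.21 down to 0 and 0.05, and both were called. The 10 macrophage and leukocyte markers summed to 39.6 and 49.6 against 36.7 and 43.9 TPM, most of it Cd14, with Adgre1 and Itgam under 0.1 TPM. For mesothelial cells the sum of 7 markers was 22.6 and 27.8 against 39.7 and 41.2 TPM, nearly all of it Msln, with Wt1 under 0.1 TPM. For adipocytes the sum of 8 markers was 83.1 and 69.8 against 50.2 and 60.5 TPM, led by Fabp4, with Adipoq and Plin1 under 0.1 TPM and Pparg called lower. The 10 neural markers summed to 112 and 109 against 106 and 91.0 TPM, and 5 of them reached 1 TPM in all 4 libraries. Nes had 45.5 and 37.8 against 55.6 and 46.7 TPM, Map2 14.6 and 25.6 against 22.2 and 16.2, and Sox2, which was called lower, 43.9 and 37.1 against 18.7 and 17.5, while Sox10, Snap25 and Rbfox3 were under 0.1 TPM. The 10 smooth muscle and pericyte markers summed to 106 and 93.8 against 122 and 125 TPM. Of the 4 tested, Cspg4 (38.9 and 28.3 against 65.8 and 63.9 TPM) and Des were called higher and Mcam (6.27 and 7.32 against 2.28 and 3.31) lower, while Acta2, with 60.5 and 57.1 against 50.8 and 55.6 TPM, was not called. The 10 chondrocyte and osteoblast markers summed to 45.8 and 38.0 against 47.1 and 41.6 TPM, most of it Runx2 and Sox9, and of the 4 tested Col2a1 was called higher and Acan, at 0.60 and 0.73 TPM in WT and 0 in ATRXΔRBR, lower. The 9 pluripotent and germ cell markers gave 0.35 TPM or less in each library. In bulk RNA a lower share of cells that express a gene and less RNA of that gene in each cell cannot be told apart.

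Of the genes tested, 1119 were called (6.85%), 455 of them higher in ATRXΔRBR (2.79%) and 664 lower (4.07%). At an unadjusted p under 0.05 there were 3364 genes. When 10 or more counts were required in each library, which leaves out genes that fell to 0, 315 genes were higher and 281 lower, so that rises outnumbered falls. The median log2 fold change of all genes was −0.02, with quartiles of −0.32 and 0.32, a centre that the normalisation sets near 0. In all 1119 called genes, both libraries of one genotype lay above both of the other in normalised counts (CPM, scaled to the library total), which was also true of 49.5% of all genes tested. The falls were larger than the rises. For these sizes, the 113 falls and 11 rises with 0 counts in a genotype were placed at their lower bound, set against 3 counts over its pair of libraries, and the 90 falls and 14 rises with 1 to 3 counts at their ratio of scaled counts. Genes called lower then had a median change of 2.73 on the log2 scale and genes called higher one of 1.40. Among the 664 falls, 586 were over 2-fold and 169 (25.5%) over 16-fold, while among the 455 rises 332 were over 2-fold and 19 (4.18%) over 16-fold. Most called genes code for protein, 425 of those higher and 637 of those lower.

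**Figure D1:**
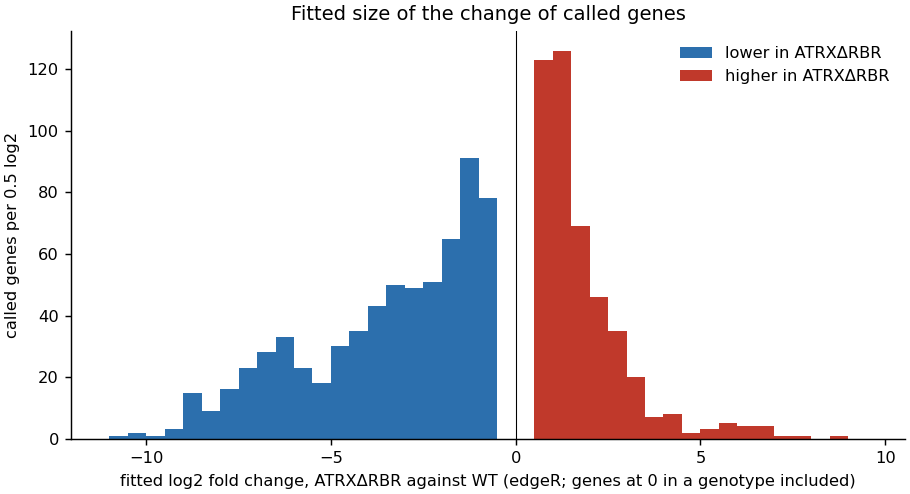
Number of called genes (y axis) by edgeR log2 fold change of ATRXΔRBR against WT in steps of 0.5 (x axis), with genes called lower in blue and genes called higher in red. Values are as fitted, and those of the 113 falls and 11 rises at 0 counts in a genotype depend on the fit and are no bounds. The 664 falls reach larger sizes than the 455 rises, with 169 falls and 19 rises over 16-fold when genes of 3 or fewer counts in a genotype are placed at their bound or ratio.

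At the far end of the falls were genes whose RNA was found in WT and not in ATRXΔRBR. With at least 30 counts in each WT library, 32 genes had 0 counts in both ATRXΔRBR libraries, and 0 genes met the reverse condition. In single libraries, 59 and 44 genes with this level in WT were at 0 in the ATRXΔRBR libraries, whereas 3 genes with this level in ATRXΔRBR (Gm49333, Gm49369 and Gm45062) were at 0 in WT replicate 1 and 0 genes in WT replicate 2. The 32 genes all code for protein, had between 30 and 241 counts in WT, and lay on 13 chromosomes, with at most 4 on any of them. Their folds are lower bounds, set against 3 counts over the pair of ATRXΔRBR libraries.

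Among these genes, Decr1, a mitochondrial reductase of fatty acid beta-oxidation, had 11.5 and 13.4 TPM in WT and 0 in both ATRXΔRBR libraries, and was at least 145-fold lower. Mageh1, a small X-linked gene of the MAGE family, went from 16.5 and 13.5 TPM to 0 and was at least 83.8-fold lower. Gap43, a membrane protein of growing axons, went from 11.6 and 7.74 TPM to 0 and was at least 48.7-fold lower. In these genes the WT libraries were well above the detection limit and nothing was counted in the other pair. Developmental regulators were among them: Sim2, a bHLH-PAS transcription factor, had 66 and 55 counts in WT, Lmo1, a LIM domain cofactor, had 46 and 41, and the secreted ligand Wnt10a had 66 and 41. Others act at the cell surface or in the matrix. Sulf1, which trims sulfate groups from heparan sulfate, had 80 and 100 counts in WT, Cd200, a ligand that restrains myeloid cells, had 48 and 49, and Pcsk6, a protease that activates growth factor precursors, had 38 and 40. Mlkl, the effector of necroptosis, had 52 and 60 counts, and Cpeb1, which binds the tails of mRNAs, had 71 and 85. In the libraries labelled ATRX KD, whose Atrx level was not below WT, Decr1 had 43.6 and 32.7 TPM and Sulf1 19.4 and 16.8, while Mageh1 and Wnt10a were at 0 in both.

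A wider group was barely detected in ATRXΔRBR. Dlk1, an imprinted ligand-like protein of the Notch family, had 50.01 and 43.6 TPM in WT and 0.06 and 0.08 in ATRXΔRBR. That is 577 and 342 counts against 1 in each library, a ratio of 425 with a 95% counting interval from 117 to 3513. Hebp2, a haem-binding protein, fell from 17.2 and 16.6 TPM to 0.09 and 0, a ratio of 214 with a counting interval from 38.1 to 8508. Mgst1, a microsomal glutathione transferase, fell from 20.5 and 21.8 TPM to 0 and 0.40, a ratio of 86.0 (counting interval 23.5 to 715). These intervals cover counting error only. Counted by level, 41 genes had at least 2 TPM in both WT libraries and at most 0.1 TPM in both ATRXΔRBR libraries, and 3 genes showed the reverse. These 3, named after their values were seen, were Gm47015, 9130019P16Rik and Mir546, the last of which lies within Ctdsp2.

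Some of the falls were in abundant transcripts. Perp, a p53 target of desmosomes, had 392.1 and 390.9 TPM in WT and 62.4 and 63.1 in ATRXΔRBR, a log2 fold change of −2.70 (SE 0.18, edgeR adjusted p = 0.000335). Ldhb, a subunit of lactate dehydrogenase, had 150 and 150 TPM against 21.99 and 26.4, Hspb8, a small heat shock protein, 44.3 and 53.6 against 1.63 and 2.04, and Adgrl2, an adhesion G protein-coupled receptor, 52.2 and 62.2 against 6.99 and 5.06. Tspan6, an X-linked tetraspanin, had 26.7 and 36.7 TPM in WT and 0.91 and 0.97 in ATRXΔRBR. In each of these genes the replicates of a genotype lay close together and the genotypes far apart. The called genes of highest TPM fell by less. Tmsb4x, which sequesters actin monomers, went from 2792 and 2406 TPM to 1267 and 1433, Uchl1, a ubiquitin hydrolase, from 493 and 386 to 203 and 227, and Ccn1, a matricellular protein, from 445 and 438 to 214 and 229. The mitochondrial ribosomal RNA mt-Rnr2 went from 8725 and 7300 TPM to 3047 and 2732 (log2 fold change −1.54).

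The rises included genes that were nearly silent in WT. Pax3, a transcription factor of the neural crest and muscle progenitors on chromosome 1 (chr1:78101267-78197134), had 0.09 and 0.11 TPM in WT and 6.82 and 7.56 in ATRXΔRBR. Its log2 fold change was 6.23 (SE 0.41, edgeR adjusted p = 0.000335), from 2 counts in each WT library, and both libraries labelled ATRX KD were at 0. Ifi27l2a, an interferon-inducible mitochondrial protein, rose from 2.29 and 0.80 TPM to 52.3 and 73.2. Its neighbour Ifi27 rose from 37.1 and 30.7 to 160 and 180. Avil, an actin-binding protein of the villin family, rose from 1.67 and 1.95 TPM to 33.7 and 27.9, and Sgsm1, a regulator of Rab GTPases, from 0.86 and 1.38 to 22.7 and 21.4. Trp63, the p53-family factor of stratified epithelia, rose from 0.90 and 0.66 TPM to 9.43 and 8.02. Col2a1, the main collagen of cartilage, rose from 0.92 and 1.21 to 10.2 and 8.63. The order of the genotypes was the same in all of these, although Ifi27l2a varied more within WT than the others.

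Abundant transcripts rose by smaller factors. S100a4, a calcium-binding protein of motile fibroblasts, had 4166 and 4164 TPM in WT and 9697 and 11816 in ATRXΔRBR (log2 fold change 1.32, SE 0.19). Spp1, the matrix protein osteopontin, had 622 and 743 TPM against 2013 and 1974, and Lgals3, a galectin, 397 and 410 against 761 and 933. Cldn1, a claudin of tight junctions, rose from 53.9 and 62.2 TPM to 250 and 195. Serpinf1, which encodes the secreted factor PEDF, rose from 40.9 and 48.5 to 204 and 213. S100a4 and Spp1 each overlap a predicted gene on the same strand, and the split of their reads is uncertain. Ftl1, the ferritin light chain, rose from 333 and 256 TPM to 640 and 837, together with the small predicted gene Gm22133 that lies inside it.

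**Figure D2:**
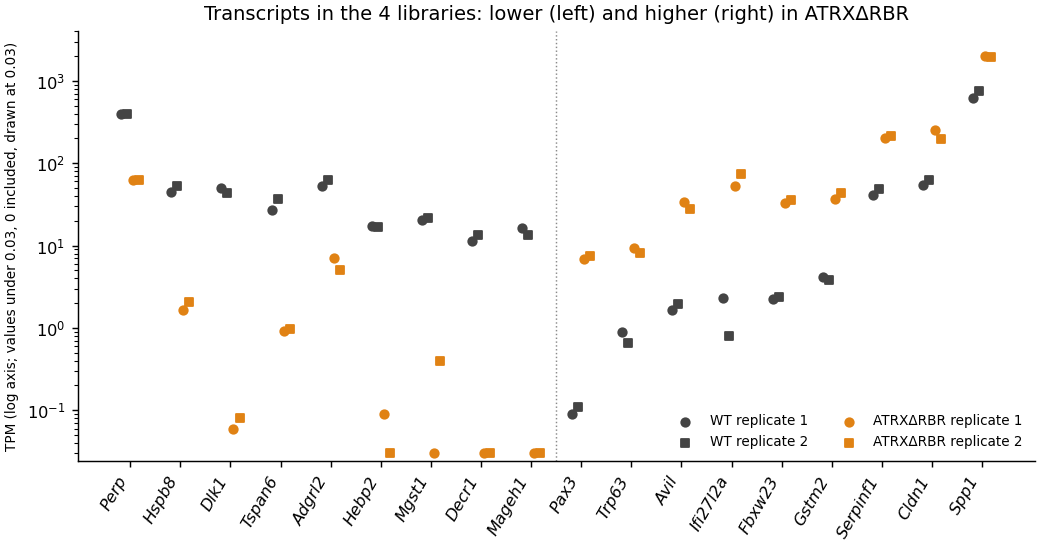
TPM (log axis; values under 0.03, 0 included, are drawn at 0.03) of 18 genes in the 2 WT libraries (grey) and the 2 ATRXΔRBR libraries (orange), circles for replicate 1 and squares for replicate 2. In each gene both libraries of one genotype lie on the same side of both libraries of the other, with Decr1 and Mageh1 at 0 in ATRXΔRBR and Pax3 between 0.09 and 0.11 TPM in WT.

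Gene lists were described by the number of their tested members called in each direction. These numbers stand beside 4.07% lower and 2.79% higher over all genes, and no test was made over a list. The share called also varied with abundance. Of 5 equal classes of mean count, the second had 9.73% lower and 4.13% higher, and the highest 1.29% and 1.96%. The lists were not matched for abundance, so its part in their shares was not tested. Where a count of 5 or fewer called genes is given for a list all of them are named, other than genes not reported here, some of them chosen after their values were seen.

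In the Wnt, growth factor and cytokine lists more genes were lower than higher, and the share lower was above the 4.07% over all genes. Of 39 Wnt pathway genes, 10 were lower and 2 higher (Fzd5 and Porcn), with a median log2 fold change of −0.28. Wnt5a, a ligand that acts largely without β-catenin, had 12.7 and 13.9 TPM in WT and 1.92 and 3.21 in ATRXΔRBR. Wnt5b fell from 4.89 and 4.49 TPM to 0.19 and 0.27, and Rspo3, a secreted enhancer of Wnt signalling, from 5.16 and 4.45 to 0 and 0.23. The sign of this list's median was not kept when genes with a library under 10 counts were left out (0.18), a filter that removes the genes that fell to 0. Of 51 genes of FGF, PDGF, VEGF and EGF signalling, 14 were lower and 7 higher (median −0.33). Hbegf, a membrane-bound ligand of the EGF receptor, fell from 138 and 125 TPM to 30.8 and 37.7. The growth factor genes Pdgfc, Pdgfd and Igf1 also fell, Pdgfc from 10.7 and 9.21 TPM to 1.36 and 1.05 and Igf1 from 3.98 and 5.91 to 0.70 and 0.23. Of 29 cytokines and cytokine receptors, 5 were lower (Tnfrsf11b, Il1rn, Lifr, Tnfrsf19 and Il13ra1) and 0 higher. Tnfrsf11b, the decoy receptor osteoprotegerin, fell from 8.76 and 12.1 TPM to 0.88 and 1.45. TGF-β and BMP signalling had 3 of 40 genes lower (Bmp6, Inhba and Gdf11) and 1 higher (Gdf15). Notch and Hedgehog signalling had 3 of 25 lower (Gli2, Hey2 and Boc) and 1 higher (Notch3).

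Lists of guidance receptors, channels and second messenger enzymes also held called genes. Of 49 genes in the list of Eph, ephrin, semaphorin and plexin genes, which also holds Unc5 and Robo receptors, 8 were lower and 3 higher (Unc5b, Sema5a and Sema4b). Epha3, a receptor of ephrin-A ligands, fell from 3.61 and 5.31 TPM to 0.04 and 0.05. Sema3a, a secreted repulsive cue, fell from 5.85 and 8.75 to 0.99 and 0.54, and Robo1, the receptor of Slit proteins, from 3.77 and 5.20 to 0.47 and 0.30. Of 49 genes picked by name as potassium, sodium and calcium channels, 12 were lower and 4 higher (Kcnk5, Cacna1g, Kcnab2 and Cacnb3), with a median of −0.56. One of the 12 is the noncoding RNA Kcnq1ot1, which the name pattern includes. Cacna2d1, an auxiliary calcium channel subunit, fell from 23.7 and 33.5 TPM to 8.84 and 6.70, and Kcnk5, a leak channel, rose from 1.95 and 2.22 to 8.43 and 8.43. Of 16 phosphodiesterases, which break down cyclic nucleotides, 5 were lower (Pde3b, Pde5a, Pde4b, Pde8b and Pde1a) and 1 higher (Pde8a). Pde3b fell from 10.8 and 17.4 TPM to 1.23 and 0.41. Of 40 receptors named Gpr and Adgr, 6 were lower and 1 higher (Gpr153).

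Matrix and adhesion lists held called genes of both directions. Of 30 collagens, 6 were higher and 4 lower (Col4a6, Col27a1, Col11a2 and Col3a1). Col18a1, of basement membranes, rose from 14.4 and 23.1 TPM to 47.9 and 40.3, and Col4a6 fell from 6.57 and 8.63 to 1.45 and 1.03. Of 49 matrix glycoproteins and proteoglycans, 7 were higher and 9 lower. The fibrillin Fbn2 fell from 1.04 and 1.35 TPM to 0 and 0.01, and the basement membrane linker Nid2 from 2.56 and 3.8 to 0.22 and 0.07, while the collagen-binding proteoglycan Prelp rose from 0.35 and 0.47 to 4.92 and 4.01. Of 39 matrix proteases and their inhibitors, 9 were lower and 3 higher (Adam8, Serpinf1 and Mmp19). Adam19, a membrane-bound metalloprotease, fell from 1.91 and 3.55 TPM to 0.12 and 0.07. Of 36 integrins and adhesion receptors, 6 were higher and 3 lower (Gpc4, Itga7 and Mcam). Alcam, an adhesion molecule of the immunoglobulin family, rose from 2.81 and 3.76 TPM to 27.3 and 20.2, and Itgb4, the integrin of hemidesmosomes, from 0.29 and 0.18 to 3.49 and 2.30. Of 26 cadherin and junction genes, 2 were higher (Cldn1 and Pkp1) and 4 lower, Gjb2 among them. Of 39 contractile and actin-binding genes, 4 were higher (Mylk, Des, Tns1 and Smtn) and 0 lower. Of 18 serpins, 4 were higher (Serpinf1, Serping1, Serpinb8 and Serpinb1a) and 2 lower. Collagen-processing genes had 3 of 25 higher (Adamts14, P3h2 and P4ha3) and 2 lower (P3h3 and Loxl1).

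Of 29 genes of the unfolded protein and integrated stress response, 6 were higher and 2 lower (Vldlr and Hsp90b1), with a median log2 fold change of 0.52. Trib3, a pseudokinase induced by ATF4, rose from 57.3 and 51.8 TPM to 171 and 199. Asns, asparagine synthetase, rose from 236 and 221 to 558 and 552, and Sesn2, a leucine sensor, from 26.8 and 28.3 to 64.1 and 61.1. Of the called falls in the list, Vldlr, a lipoprotein receptor, went from 7.16 and 10.5 TPM to 0.47 and 0.76, and Hsp90b1, the chaperone of the endoplasmic reticulum, from 1686 and 2332 to 1408 and 992. Outside this list, Gars, a glycine tRNA ligase, rose from 287 and 283 TPM to 639 and 572, and Aldh18a1, of proline synthesis, from 111 and 129 to 284 and 245. Slc7a11, the cystine importer, fell from 8.67 and 15.8 TPM to 3.38 and 2.2. Of 31 antioxidant and NRF2 target genes, 3 were higher (Gstm2, Gstm1 and Nqo1) and 2 lower (Slc7a11 and Mgst1). Gstm2 rose from 4.11 and 3.83 TPM to 36.4 and 43.2, although the Gstm genes are close copies of each other and the split of their reads is uncertain.

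Metabolic lists held called genes of both directions, in shares to be read beside the 6.85% called over all genes. Of 25 glycolysis genes, 4 were lower (Ldhb, Eno2, Tpi1 and Pfkfb3) and 2 higher (Eno3 and Pfkm). Tpi1, triosephosphate isomerase, fell from 599 and 670 TPM to 334 and 362. Of 29 genes of fatty acid beta-oxidation, 2 were lower (Decr1 and Cpt1c) and 2 higher (Acox2 and Ech1). Of 29 of lipid synthesis and storage, Pparg, the master regulator of adipocytes, fell from 2.82 and 2.16 TPM to 0 and 0 and Scd1, a fatty acid desaturase, rose from 246 and 242 to 453 and 377, a share of 6.90% called that is near the background. Of 91 nuclear genes of oxidative phosphorylation, 1 was lower (Ndufa9) and 1 higher (Cox6a2), a share below the background. Of 209 solute carriers, 12 were lower and 10 higher, and of 22 heat shock genes 2 were lower (Hspb8 and Hspb1) and 2 higher (Cryab and Hspb6). Of 20 hypoxia genes, 3 were lower (Epas1, Ak4 and Adm) and 1 higher (Ndrg1).

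Immediate early and interferon-stimulated genes had more falls than rises. Of 27 immediate early genes, 6 were lower and 1 higher (Klf4). Egr1, a zinc finger factor induced by growth factors, had 166 and 150 TPM in WT and 85.7 and 84.3 in ATRXΔRBR, and Fos, a component of AP-1, 10.8 and 13.7 against 6.20 and 6.03. Of 39 interferon-stimulated genes, 6 were lower and Ifi27 was higher. Parp9, Dtx3l and Parp14, which lie next to each other on chromosome 16, were among the 6. Parp9 fell from 6.22 and 10.3 TPM to 2.53 and 1.47 and Dtx3l, its ubiquitin ligase partner, from 2.89 and 2.56 to 0.57 and 0.46. Of 12 chemokines, Cxcl1 was lower, and of 19 genes of MHC class I and antigen processing 2 were lower (H2-M3 and Pdia3). The NF-κB pathway had 2 of 19 genes lower (Birc3 and Bcl3) and 1 higher (Ikbkg).

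Developmental transcription factors and receptors contributed further falls. Of 43 GATA, forkhead, Sox, Pax, Runx and Nkx factors, 6 were lower and Pax3 was higher. Sox2, a factor of pluripotent and neural progenitor cells, had 43.9 and 37.1 TPM in WT and 18.7 and 17.5 in ATRXΔRBR. Sox11 fell from 3.38 and 1.68 TPM to 0.13 and 0.10. Of 33 T-box and limb patterning factors, 2 were higher (Eya1 and Shox2) and 5 lower, Tbx20 among them. Of 21 retinoid and nuclear receptor genes, 2 were higher (Dhrs3 and Vdr) and 4 lower, Crabp1 among them. Crabp1, a carrier of retinoic acid, fell from 12.4 and 7.98 TPM to 0.29 and 0.55, and Dhrs3, which reduces retinal, rose from 0.64 and 1.02 to 9.42 and 8.97. Of 18 Hox genes tested, Hoxa10 was called, higher, with 2.58 and 1.72 TPM in WT and 5.46 and 8.01 in ATRXΔRBR. Of 340 Zfp zinc finger genes, 20 were lower and 9 higher, 8.53% in all, which is near the 6.85% over all genes.

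Several lists of the chromatin machinery had no calls. Of 12 genes of ATRX, DAXX and the H3.3 chaperones, 17 of HP1 and H3K9 methylation, 18 telomere genes, 15 of CTCF and cohesin and 24 histone genes, 0 were called. The 40 replication and 40 mitosis genes also had 0 calls, with 450.9 and 394 TPM of the helicase subunit Mcm4 in ATRXΔRBR against 405 and 420 in WT. Over all genes 6.85% were called, and in the class of highest counts 1.29% were lower and 1.96% higher. At such shares lists of these sizes hold few calls, so 0 is not read as a trait of them. Of 13 PRC2 subunits, 1 was called. This was Ezh1, the alternative catalytic subunit, which rose from 12.3 and 16.5 TPM to 35.2 and 26.5. Ezh2 had 204 and 177 TPM in WT and 246 and 206 in ATRXΔRBR and was not called (log2 fold change 0.28, edgeR adjusted p = 0.392). Of 26 SNF2-family remodellers, 3 were lower (Smarca1, Chd7 and Smarca2), and Smarca1 went from 0.85 and 0.90 TPM to 0. Of 16 genes listed for DNA methylation, Gadd45a was higher. The p53 list had 3 of 30 genes higher (Sesn2, Gadd45a and Cdkn1a) and 2 lower (Perp and Pmaip1). Of 79 cytosolic ribosomal protein genes, 2 were lower (Rpl5 and Rpl9).

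**Figure D3:**
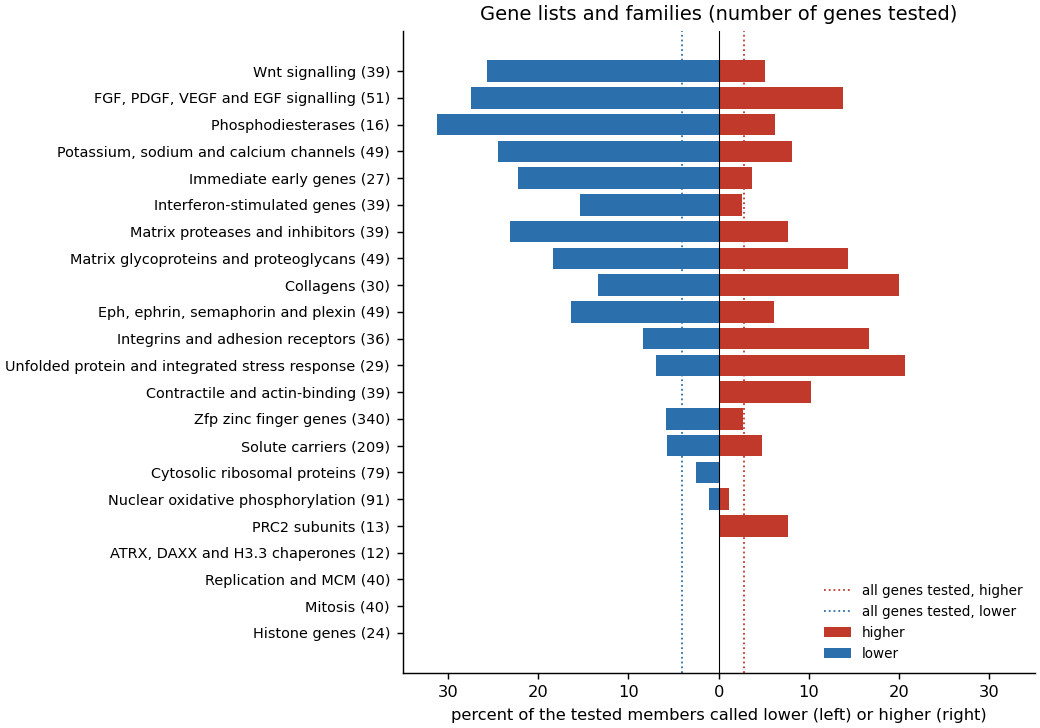
Percent of the tested members of 22 lists and families called lower (blue, left) or higher (red, right) in ATRXΔRBR, with the number tested in brackets and the shares over all genes, 4.07% and 2.79%, as dotted lines. Wnt, growth factor, channel and phosphodiesterase genes lie to the left and stress response genes to the right. Replication, mitosis, histone and H3.3 chaperone genes have 0 calls, which is not read as a trait of lists of these sizes.

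Of 33 imprinted genes, 5 were lower (Dlk1, Kcnq1ot1, Zrsr1, Snrpn and Snhg14) and 3 higher (Grb10, Trappc9 and Slc22a18). Grb10, an adaptor that restrains growth factor receptors, rose from 108 and 110 TPM to 248 and 194. Xist had 434 and 468 TPM in WT and 305 and 237 in ATRXΔRBR and was not called (log2 fold change −0.42, SE 0.45, edgeR adjusted p = 0.67). Its counts were 11298 and 25127 in WT and 14370 and 9420 in ATRXΔRBR. Both ATRXΔRBR libraries lay below both WT libraries in TPM, while in counts the ranges overlapped. Without WT replicate 2 the fold change was 0.36, and without ATRXΔRBR replicate 2 it was 0.04. Xist was called lower without WT replicate 1 (−0.93, edgeR adjusted p = 0.00518) and without ATRXΔRBR replicate 1 (−1.11, edgeR adjusted p = 0.0012). Of 13 X-linked genes that escape inactivation, Car5b was higher. Of 11 MAGE and cancer-testis genes, Mageh1 was lower and the homeobox gene Rhox5 higher, from 6.02 and 6.86 TPM to 23.2 and 30.3. Long intergenic noncoding RNAs had 9 of 458 genes higher and 3 lower (Wincr1, 2310001H17Rik and Gm53), and processed pseudogenes 2 of 1216 higher (Gm18757 and Gm37348) and 11 lower, both under the share of the protein-coding genes, of which 3.35% were higher and 5.02% lower.

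Called genes were spread unevenly over abundance. Of the 5 equal classes of mean count, the lowest had 92 genes lower and 21 higher, the second (3267 genes) 318 lower and 135 higher, and the third 164 lower and 155 higher. In the fourth class 48 were lower and 80 higher, and in the class of highest counts 42 were lower and 64 higher.

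Across the genome, the fold changes of neighbouring genes shifted together on some chromosomes. The median log2 fold change was 0.32 on chromosome 1 (987 genes, 70 higher and 37 lower) and 0.28 on chromosome 15 (670 genes, 42 higher and 16 lower). It was −0.22 on chromosome 5 (1134 genes, 16 higher and 63 lower), −0.23 on chromosome 9 (929 genes, 15 and 46) and −0.22 on chromosome 18 (412 genes, 6 and 19). With limma on log2(TPM + 1) the medians of these 3 chromosomes were nearer 0, at −0.126, −0.135 and −0.13. The spread of a chromosome's median between replicate libraries was 0.060 (SD, pooled over chromosomes). On chromosome 1, among genes that had 10 or more counts in each of the 4 libraries, the median log2 ratio of CPM + 1 lay between 0.25 and 0.39 in the 4 pairs of an ATRXΔRBR and a WT library, and was −0.06 between the WT libraries and 0.08 between the ATRXΔRBR libraries. On chromosome 15 the 4 pairs also lay above both replicate ratios, and on chromosomes 5, 9 and 18 below them. The share of genes called lower was highest on the X chromosome (47 of 542, 8.67%) and chromosome 6 (71 of 826, 8.60%). On these, 9 and 29 genes were higher, and the median log2 fold changes were −0.06 and −0.10. Cut into windows of 20 Mb, chromosome 1 had a median above 0 in all of its 10 windows, from 0.21 to 0.48, and chromosome 15 in all 6. Chromosomes 5, 9 and 18 had a median below 0 in each of their 8, 7 and 4 windows. Copy number was not analysed here, so its part in these shifts was not tested.

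Chromosome 6 was divided. Its first 3 windows had medians of 0.20, 0.37 and 0.22, the next pair −0.02 and −0.04, and the last 3 −0.52, −0.43 and −0.41. In the sixth of them, from 100 to 120 Mb, 17 of 95 genes were lower and 0 higher. Pparg and Wnt5b lie in this window, Tpi1, Eno2, P3h3, Ndufa9 and Mgst1 in the next, and Ldhb and Bicd1 in the last. In the first window 10 of 68 genes were lower and Asns alone higher, although its median was above 0, in the second 1 of 110 was lower (Tspan12) and 9 higher, and in the third 9 of 116 were lower and 11 higher, Gars among the latter. The first window of chromosome 10 was also low, at −0.37, with 10 of 74 genes lower, Perp and Hebp2 among them, and 1 higher (H60c).

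**Figure D4:**
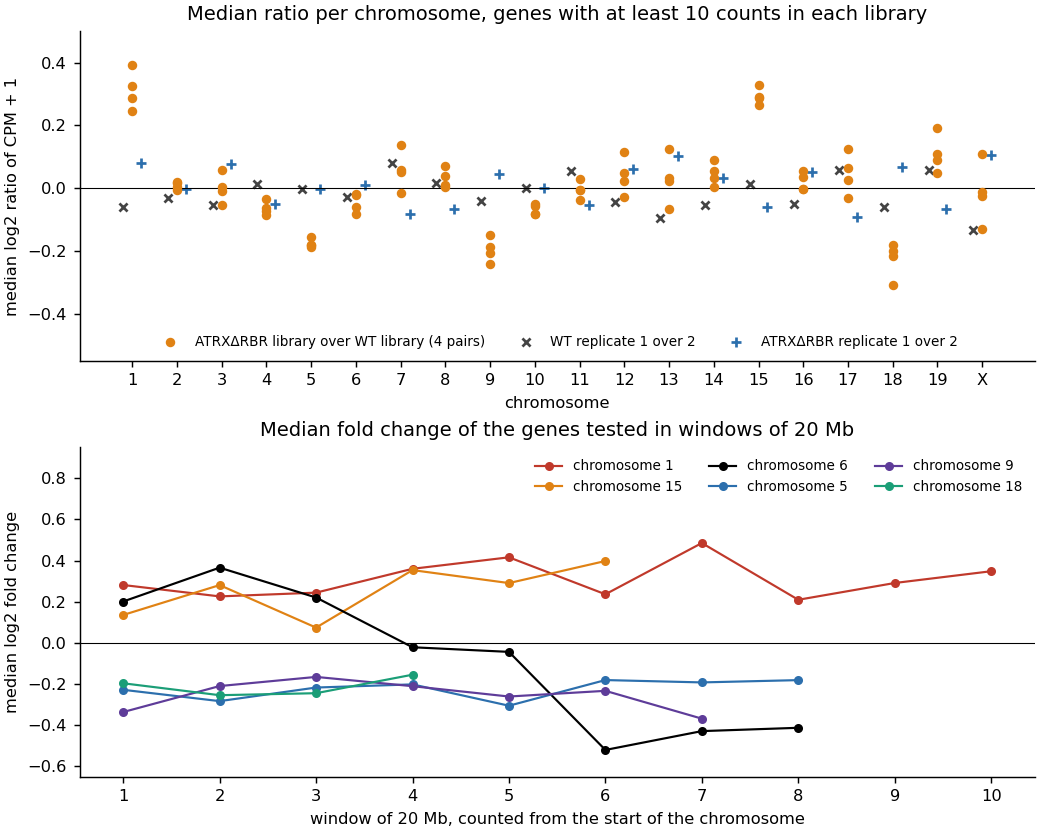
Top, the median log2 ratio of CPM + 1 of each chromosome for the 4 pairs of an ATRXΔRBR and a WT library (orange dots), for the WT replicates (crosses) and for the ATRXΔRBR replicates (plus signs). Bottom, the median edgeR log2 fold change in windows of 20 Mb, in order from the start of the chromosome, for 6 chromosomes: chromosomes 1 and 15 stay above 0, chromosomes 5, 9 and 18 below 0, and chromosome 6 goes from 0.20 to −0.41.

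Called genes also lay next to each other. A run was taken as 3 or more genes in a row among the genes tested, all called in the same direction. There were 3 such runs of higher genes and 11 of lower genes. The longest held 7 genes at the start of chromosome 6 (chr6:4902917-6028039), where Ppp1r9a, Gm44250, Pon3, Pon2, Asb4, Pdk4 and Dync1i1 all fell. Asb4 and Pon2 lie in an imprinted domain, and Pdk4, which inhibits pyruvate dehydrogenase, went from 22 counts in each WT library to 1 and 0. A run of 6 on chromosome 3 (chr3:79812564-82395268) held Tmem144, Fam198b, Glrb, Pdgfc, Ctso and Map9. On the X chromosome, Tspan6, Srpx2 and Sytl4 formed a run, and Armcx4, Armcx1 and Armcx6 another nearby. Srpx2, a secreted sushi-repeat protein, fell from 7.36 and 11.8 TPM to 0.49 and 0.12. In their window of 5 Mb, 7 of 23 genes were lower and 0 higher. On chromosome 10, Hebp2, Arfgef3 and Perp were consecutive, and on chromosome 15 Samd12, Tnfrsf11b, Ccn3 and Enpp2. The 3 runs of higher genes were Gstm7, Gstm6, Gstm2 and Gstm1 on chromosome 3, Lynx1, Ly6e, Ly6a and Ly6c1 on chromosome 15, and Plec, Parp10 and Grina on chromosome 15. Ly6e, a membrane-anchored protein induced by interferon, rose from 154 and 133 TPM to 274 and 307. The first 2 of these runs are families of similar genes, so their members are not independent in the counting, and Parp10 overlaps Plec on the same strand. Near Trp63, which rose, P3h2 and Cldn1 also rose, so 3 of the 11 genes tested in that window of 5 Mb were higher.

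Chromatin at the start sites was read from the CUT&RUN peak lists of the same genotypes, which did not enter the choice of genes. A gene was counted as occupied when a peak lay within 2 kb of its transcription start site (TSS). Of 12696 protein-coding genes tested, 7.07% had an H3K27me3 peak in both WT lists and 7.91% in both ATRXΔRBR lists. Among the 637 genes called lower these shares were 32.0% and 32.0%, and among the 425 called higher 12.9% and 8.94%. H3K27me3 is more common at genes of low expression, so the share was also read among genes of the second class of mean count. There, 126 of 311 genes called lower (40.5%) had the mark in both WT lists, against 186 of 1544 genes that were not called (12%). Among genes called higher in this class, 23 of 118 (19.5%) had it. No test was made of these shares.

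Grouped by the change of the mark, genes with H3K27me3 in both WT lists and in neither ATRXΔRBR list numbered 248, of which 71 were lower and 16 higher (median log2 fold change −0.45). Genes with the mark only in both ATRXΔRBR lists numbered 359, of which 69 were lower and 5 higher (Asns, Cyp4f40, Inpp4a, Paqr3 and Sybu, with a median of −0.28 over the 359). Of 585 genes with the mark in all 4 lists, 125 were lower and 33 higher (median −0.37), and of 11051 with none, 319 were lower and 348 higher. Most called genes of each marked group were lower, with a share of 28.6%, 19.2% and 21.4%, against 2.89% in the unmarked group.

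The EZH2 lists have to be read one by one. The list labelled ATRXΔRBR replicate 2 had 11408 peaks, of which 62 (0.543%) lay outside both WT lists, compared with 28.1% of the 22418 peaks of the list labelled ATRXΔRBR replicate 1. Near the TSS of the genes called lower, EZH2 was listed in 65% and 57.1% for WT and in 43.5% and 44.1% for ATRXΔRBR, while over all protein-coding genes the shares were 76% and 70.4% for WT and 76.7% and 52.2% for ATRXΔRBR. In the list labelled replicate 1 the share was below WT among genes called lower and not over all genes, and in the list labelled replicate 2 it was below WT in both. Of the 347 genes called lower with EZH2 in both WT lists, 32.9% lacked it in the list labelled replicate 1 and 20.7% in that labelled replicate 2, against 4.17% and 24.3% of all such genes. EZH2 peaks were more common at genes of higher expression. Both WT lists had one at 31.4% of genes not called in the lowest class of mean count and 78.8% in the highest. In the second class, 39.5% and 18.5% of such genes called lower lacked it, against 6.22% and 22.9% of those not called. Whether the peaks follow the RNA level was not tested. Since the list labelled replicate 2 lies almost wholly within the WT lists, its label is in doubt, and no difference between the genotypes is read from it. ATRX peaks were found in both WT lists at 5.89% of the protein-coding genes, at 3.76% of those called higher and at 2.35% of those called lower. The share also varied with abundance, from 2.25% of the genes not called in the lowest class of mean count to 8.73% in the highest. In the second class it was 3.37% of the genes not called, and 1 of 118 genes called higher and 1 of 311 called lower had such a peak. No test was made of these shares.

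**Figure D5:**
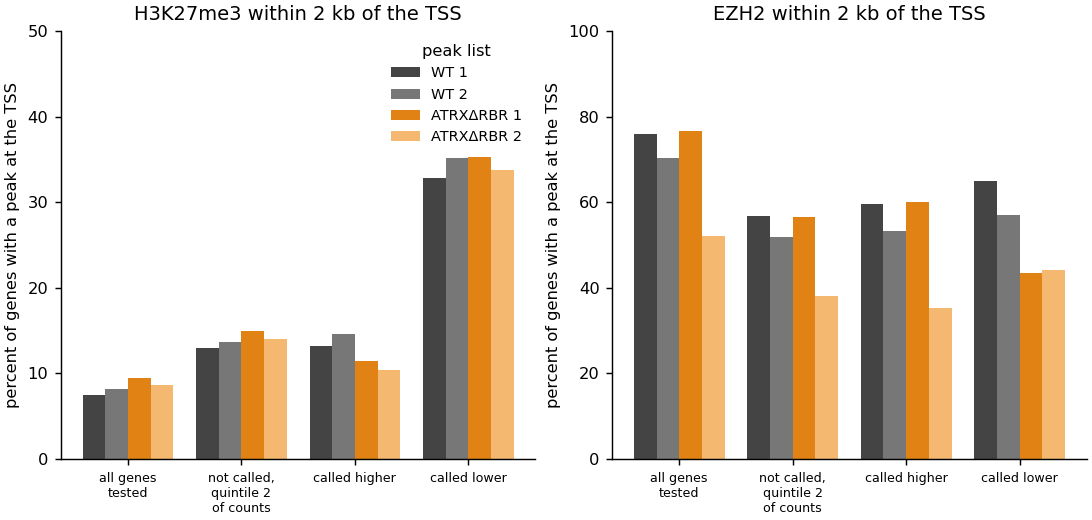
Percent of protein-coding genes with a peak within 2 kb of the TSS in each of the 4 peak lists, for H3K27me3 (left) and EZH2 (right), in all genes tested, in genes not called in the second class of mean count, and in genes called higher and lower. H3K27me3 lies at 32.8% to 35.3% of the genes called lower in every list, and EZH2 in the list labelled ATRXΔRBR replicate 2, whose label is in doubt, is below the other lists except at genes called lower.

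The marks near single start sites, within 2 kb of the TSS, are given for 5 called genes whose H3K27me3 peaks differed between the genotypes. At Pax3, which rose, H3K27me3 peaks of 67160 and 96657 bp covered the TSS in the WT lists and neither ATRXΔRBR list had one. Its EZH2 peaks were 19293 and 17468 bp wide in WT and 17449 bp in the list labelled ATRXΔRBR replicate 2, and the list labelled replicate 1 had none. At Notch3, a receptor that rose from 1.11 and 1.02 TPM to 3.09 and 2.62, both WT lists and neither ATRXΔRBR list had H3K27me3 peaks. These were 243 and 957 bp wide and did not cover the TSS. At Zfp503, a corepressor that fell from 44.3 and 35 TPM to 8.76 and 7.23, the reverse was seen, with no H3K27me3 peak in WT and peaks of 6573 and 5377 bp in ATRXΔRBR. Its EZH2 peaks were 1467 and 1651 bp wide in WT, 8772 bp in the list labelled ATRXΔRBR replicate 1 and 737 bp in that labelled replicate 2. At Decr1, which fell to 0, H3K27me3 peaks of 1735 and 3119 bp near the TSS were listed in ATRXΔRBR alone. Mageh1, which also fell to 0, had H3K27me3 peaks on both sides of the TSS in the WT lists and none in ATRXΔRBR. Of the 2 among these genes that were at 0 in ATRXΔRBR, Decr1 had H3K27me3 peaks in ATRXΔRBR alone and Mageh1 in WT alone.

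Promoter sequences of Mageh1, Zfp503 and Notch3 are shown because H3K27me3 peaks within 2 kb of these start sites differed between the genotypes. No H3K27me3 peak overlaps the stretches printed, which are given with the dinucleotide CG in capitals. CG reads the same on both strands. Each runs 5′ to 3′ on the minus strand of GRCm38.p6 from 250 bases before the RefSeq start to 50 bases after it, at chrX:153037514-153037813, chr14:21989552-21989851 and chr17:32166841-32167140.
Mageh1: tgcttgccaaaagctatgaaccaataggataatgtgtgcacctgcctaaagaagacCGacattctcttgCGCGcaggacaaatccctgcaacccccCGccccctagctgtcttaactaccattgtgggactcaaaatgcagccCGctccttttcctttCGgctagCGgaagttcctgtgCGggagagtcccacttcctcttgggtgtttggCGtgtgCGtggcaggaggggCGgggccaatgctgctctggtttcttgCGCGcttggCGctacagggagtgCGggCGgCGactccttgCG
Zfp503: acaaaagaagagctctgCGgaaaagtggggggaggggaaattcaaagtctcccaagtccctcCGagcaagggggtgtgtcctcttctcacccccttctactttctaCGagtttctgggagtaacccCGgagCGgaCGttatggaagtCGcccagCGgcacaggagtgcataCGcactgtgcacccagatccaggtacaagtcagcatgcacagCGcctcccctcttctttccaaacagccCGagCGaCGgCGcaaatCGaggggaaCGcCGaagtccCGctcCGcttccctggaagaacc
Notch3: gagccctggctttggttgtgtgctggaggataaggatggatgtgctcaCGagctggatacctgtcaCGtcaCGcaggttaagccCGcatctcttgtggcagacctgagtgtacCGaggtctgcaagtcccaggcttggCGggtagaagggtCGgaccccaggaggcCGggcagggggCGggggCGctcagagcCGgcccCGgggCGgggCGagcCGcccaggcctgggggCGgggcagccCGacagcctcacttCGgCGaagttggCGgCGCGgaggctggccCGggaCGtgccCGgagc
The Mageh1 promoter holds 18 CG, that of Zfp503 19 and that of Notch3 25. As many or more are found in 29.7%, 28.1% and 18.4% of the 32851 promoters of the same length in the RefSeq table, of which 94.6% hold at least 1 CG and the median is 7. By symbol, 9914 of 12690 tested protein-coding genes were matched to this table. Over the same window at the annotated starts of the 12682 tested protein-coding genes that could be read, the median was 19 CG, with 13 at genes called higher and 15 at genes called lower. Genes of lower expression have fewer, and in the second class of mean count the medians were 13 for genes not called, 7 for genes called higher and 16 for genes called lower.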

How the data were processed

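Polyadenylated RNA of the MEFs was sequenced, and the authors aligned the reads to mm10 with STAR and quantified genes with RSEM, depositing expected counts and TPM per gene and library. The library kit keeps the strand, and the strand setting of the counting is not given in the sources used here, so reads of antisense pairs such as Kcnq1ot1 and Kcnq1 are uncertain. The CUT&RUN reads were aligned with Bowtie2, and the authors deposited broad MACS2 peaks per sample with a −log10 q-value, which was not filtered further. Genes with more than 10 deposited expected counts in total over the 4 libraries were kept, and their counts were then rounded to whole numbers. They were fitted with edgeR 4.0.16 (R 4.3.3, TMM normalisation, glmQLFit and glmQLFTest, genotype only, the 4 libraries only). P-values were adjusted by the Benjamini-Hochberg method. Fold changes of genes with 3 or fewer counts in a genotype were set against 3 counts over the pair of libraries, or given as a ratio of scaled counts with an exact 95% interval, which covers counting error only. Peaks were assigned to the annotated TSS of GENCODE M21 with Python 3.11.15. DESeq2 1.42.0 and limma 3.58.1 served as alternatives, together with other filters, a fit of all 6 libraries, a replicate block and fits without each library. The scripts were tested on simulated counts.

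The genes and gene lists were chosen with earlier results of these data known. The genes named were the 15 largest rises and the 15 largest falls among called genes with at least 2 TPM in both libraries of the higher genotype, and the genes at 0 in both libraries of a genotype with at least 30 counts in each library of the other, not all of which are printed. The 8 called genes of highest TPM in each direction, up to 4 called genes of each list, window or run by lowest adjusted p, and Atrx, Daxx, Ezh2 and Xist were named too. Peak lists of the libraries labelled ATRX KD were not used here. Some genes are not reported here.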

Additional observations from a re-analysis of the deposited data

How the results depend on the processing

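The 1119 called genes became 1975 with no filter on low counts (848 higher, 1127 lower), 596 with 10 or more counts required in each library (315 higher, 281 lower, so that rises outnumbered falls), 1812 with all 6 libraries in a single fit (800 higher, 1012 lower) and 497 with limma on log2(TPM + 1) (186 higher, 311 lower). DESeq2 called 1123. Without a library the count lay between 1216 and 1580, and 786 of the 1119 genes were called in each of these fits. Of the 284 called genes that are named or were eligible to be named, 0 reversed under any alternative run, and limma lost 109 of the calls. With the replicate number as a replicate block, 1071 genes were called (397 higher, 674 lower), 926 of them among the 1119. Same-numbered libraries did not deviate together (correlation −0.37), and the crossed pairing, added after seeing the data, called 5585 (2670 higher, 2915 lower). The median log2 fold change was −0.13 on each of chromosomes 5, 9 and 18 with limma (−0.126, −0.135 and −0.13), and on chromosome 18 lay between −0.29 and −0.16 without a library. Xist had log2 fold changes between −1.11 and 0.36 without a library, the lowest without ATRXΔRBR replicate 1, and was called lower in that fit and, at −0.93, without WT replicate 1. The causes of these changes were not tested. The 2 libraries a genotype and totals of 9574175 to 13694802 counts limit the precision.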

Other observations

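The replicates of a genotype differed with transcript length. In the shortest of 5 equal classes of exon length, the median log2 ratio of WT replicate 1 to replicate 2 was 0.12, and in the longest it was −0.18. For ATRXΔRBR the order was opposite, with −0.15 in the shortest class and 0.24 in the longest. The median log2 fold change between the genotypes went from −0.08 in the shortest class to 0.05 in the longest.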
